A study of Drosophila melanogaster with 6 samples.

Results

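Cytochrome P450 genes were followed by family in whole larvae of Drosophila melanogaster raised with or without palm fruit juice. Members were the array rows annotated with exactly 1 gene whose symbol begins with Cyp and a digit. This gave 82 of 13402 genes, each with 1 row. Of these, 80 are cytochrome P450s. The other members, Cyp1 and Cyp40, are cyclophilins, peptidyl-prolyl isomerases that share only the first letters of the symbol, and they were set apart from every P450 count. The P450s held 22 genes of family 4, 22 of family 6, 5 of family 9, 6 of family 12, 4 of family 28 and 21 of other families. The control group was larvae of strain w1118, aged 5 days, kept from the egg on a semi-purified diet, and the juice group was the same strain and age on that diet with palm fruit juice (PFJ), an aqueous extract of oil palm fruit. The labels give 4 ml of juice, a final 19000 mg of gallic acid equivalents per kg of diet and also 0.86 mg per kcal. The last pair of figures would put 22093 kcal in a kg of diet, so at least one of them cannot stand as written. Each group had 3 arrays, and each array was a separate pool of whole-body RNA from 3 to 4 larvae; sex and exact moulting stage are not in the labels.

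Cytochrome P450s are haem enzymes that insert a single atom of molecular oxygen into a substrate, with electrons passed on from a partner protein. Most fly P450s sit in the endoplasmic reticulum and draw electrons from P450 reductase and cytochrome b5, while family 12 and a few others are mitochondrial and use ferredoxin. In a larva, members of families 6, 9, 12 and 28 are best known for the metabolism of plant compounds and insecticides in the midgut, Malpighian tubules and fat body. Other members make or break down the moulting hormone ecdysone or build the waterproofing hydrocarbons of the cuticle.

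Values are log2 expression after the robust multi-array average (RMA), so a difference of 1 is 2-fold, and a level is comparable between arrays for 1 gene but not between genes. The deposited table carries no detection call. Array medians lay between 3.60 and 3.78. A pair of pools stood apart across the genome. Control replicate 1 had 536 of 10051 tested genes 2-fold or more away from the average of its fellow arrays and juice replicate 2 had 440, while each remaining pool had 54 to 178. Several of the differences are also given with a pool omitted, and the remaining ranges stand in the closing section where the direction turned. Among tested P450s only 0 to 2 genes per array were that far out. Markers of some larval organs lay above 2.63, the level below which genes were not tested. In both groups the fat body genes Lsp2, Fbp1, Fbp2 and apolpp were at 9.65 to 12.56. Midgut genes were at 6.05 to 9.43 and the salivary glue genes at 4.67 to 11.76. The labelled whole larval body was thus represented in part. However, 3 of 5 Malpighian tubule markers stayed at or below 4.15 in every array and the measured epidermis markers, resilin and TwdlM, at or below 2.76. In whole-body RNA, fewer cells of a type and less RNA per cell cannot be told apart.

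The comparison asked which P450 transcripts changed when juice was added to the larval diet. None of the tested P450s passed the test against the spread between pools. After removal of the dimmest 25% of genes, 50 P450s were tested, and limma called 0 of them at adjusted p under 0.05 (smallest adjusted p = 0.931), where 0.00% of all tested genes were called. A higher mean in juice was seen in 30 of 50 members and a lower mean in 20, against 44.9% higher among all tested genes. This split moved with the processing: equal array medians gave 36 of 50, against 52.8% of all genes, array weights gave 25 of 50, against 46.9%, and omitting both control replicate 1 and juice replicate 2 gave 22 of 50, against 45.9%. The median difference over the members was 0.07 on the log2 scale, and that over all tested genes was -0.03. The members' median turned to -0.013 with array weights and to -0.043 with both pools omitted. At unadjusted p under 0.05, 3 members were higher, against a background of 2.68%, and 0 were lower, against 2.00%. That count of 3 fell to 0 without control replicate 1 or control replicate 3 and to 1 without juice replicate 1 or juice replicate 2, and it rose to 6 without juice replicate 3. Over all 10051 tested genes and both directions, 470 were at that p in the main fit. Without these pools, in the same order, the numbers were 362, 181, 750, 358 and 556. The 3 juice pools lay wholly above the 3 control pools in 5 members (background 4.96%) and wholly below in 0 (background 5.08%). No member reached 2-fold between the group means, where 1.14% of all tested genes did.

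The intervals show what these arrays could resolve. The median 95% interval of a member reached 0.47 to either side of its difference, and in 44 of 50 members the whole interval lay within 2-fold in both directions. This share, 88.0%, stood beside 85.0% among all tested genes. The 6 members whose intervals reached past 2-fold were Cyp6a23, Cyp18a1, Cyp309a1, Cyp4s3, Cyp4g1 and Cyp12e1.

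**Figure D1:**
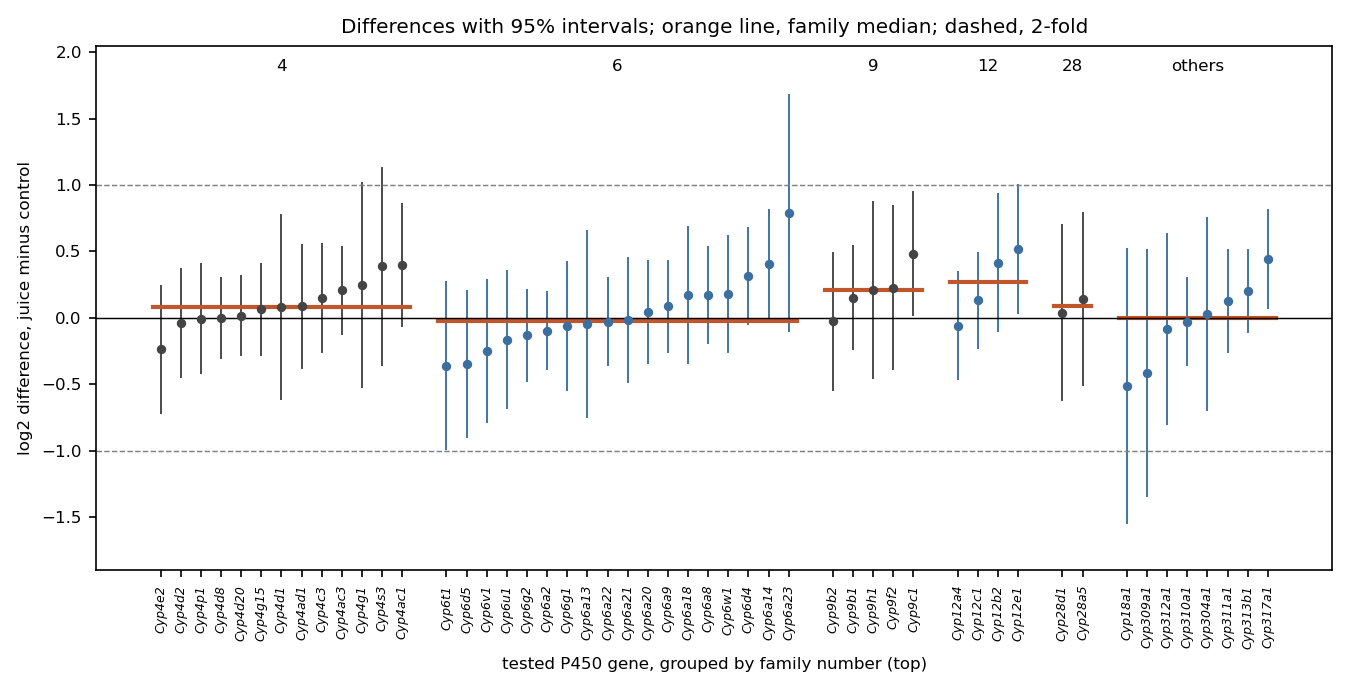
Log2 difference, juice minus control, of the 50 tested P450s (points, n = 3 arrays per group) with limma's 95% intervals (bars), grouped by family number; orange lines are family medians and dashed lines mark 2-fold. All points lie within 2-fold, and the family medians run from -0.02 to 0.27.

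Pools of the same group also differed among themselves. Within groups the median spread of a tested P450 was 0.26 (pooled SD), against 0.23 over all tested genes. The values of a gene across the 6 arrays covered at least 2-fold in 13 of 50 members (26.0%), against 20.6% of all tested genes. Juice replicate 2 held the highest value of 17 members and control replicate 2 that of 11, while control replicate 1 held the lowest value of 15 and juice replicate 3 that of 13. Over all tested genes these arrays held 27.0% and 8.51% of the highest and 13.9% and 10.9% of the lowest values. Control replicate 1 was the highest array for 20.1% of all tested genes but for 2 of 50 P450s.

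The same arrays recurred family by family. In control replicate 1 the median member of every family lay below its own mean over the arrays, from -0.12 in family 6 to -0.41 in family 9. In juice replicate 3, too, all 6 family medians were negative, from -0.07 in family 9 to -0.47 in family 28. In juice replicate 2 all 6 were positive, from 0.09 in family 4 to 0.56 in family 9. The remaining arrays were mixed. The midgut markers, 6 of 7 listed, were also lowest in control replicate 1, at a mean deviation of -0.46. Their mean was highest in control replicate 2 at 0.32. They ranged from -0.46 to 0.32 in control and from -0.18 to 0.09 in juice pools. Of the 6, 5 had a higher and 1 a lower mean in juice. The latter, Mur29B, measured 7.62, 7.64 and 8.19 in control and 7.27, 6.05 and 6.90 in juice pools. Its lowest value was in juice replicate 2, where it lowers the mean of the list. The mean of the 4 tested Malpighian tubule markers was highest in juice replicate 2, at 0.24. It ranged from -0.27 to -0.05 in control and from 0.05 to 0.24 in juice pools, but the groups overlapped in Irk2, Drip and ZnT35C. The testis markers stood at 0.72 in control replicate 1 and from -0.26 to 0.16 elsewhere. The means of other organ lists were split by group. That of the 2 muscle markers, of 4 listed, ranged from -0.45 to -0.08 in control and from 0.05 to 0.48 in juice pools. That of the 5 salivary gland markers ranged from 0.14 to 0.21 in control and from -0.29 to -0.02 in juice pools. The groups overlapped in Sgs5, Sgs7 and Sgs8, though not in Sgs3 and Sgs4. The mean of the 4 fat body markers ranged from 0.01 to 0.13 in control and from -0.20 to -0.0025 in juice pools. The groups overlapped in Lsp2 and apolpp, though not in Fbp1 and Fbp2, and apolpp had a higher mean in juice, by 0.04. The part of these lists in the P450 levels was not tested.

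**Figure D2:**
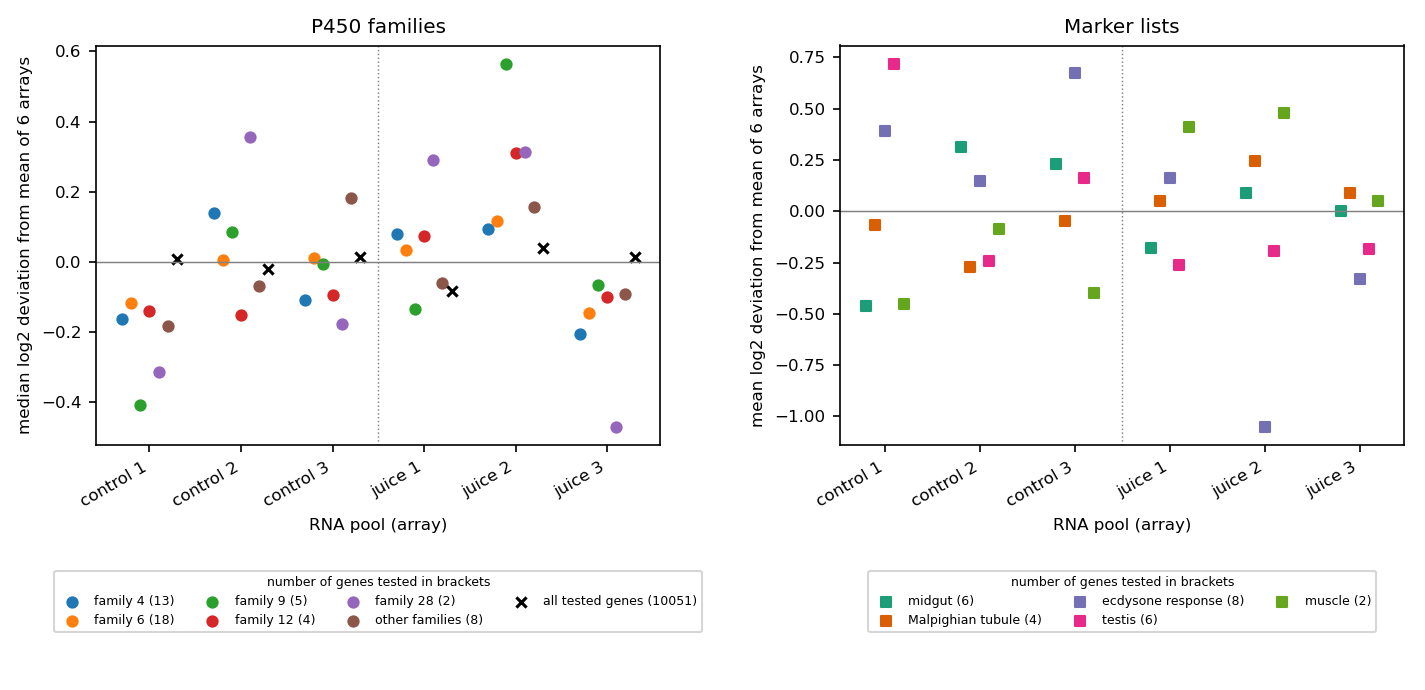
Left, the median log2 deviation of each P450 family and of all tested genes from the mean of 6 arrays, per RNA pool; right, the mean deviation of 5 marker lists on the same pools (number of genes in brackets). Family 9 runs from -0.41 in control replicate 1 to 0.56 in juice replicate 2, and every family is below 0 in control replicate 1 and in juice replicate 3.

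Family 9 belongs to the same clan of P450s as family 6, and several of its members have been linked to detoxification. All 5 genes were tested, 4 had a higher mean in juice, and the median difference was 0.21. Cyp9c1 measured 6.26, 6.57 and 6.45 in the control pools and 6.72, 7.30 and 6.71 in the juice pools. Every juice pool lay above every control pool, but juice replicate 2 stood well over the others. Its group means were 6.43 ± 0.16 and 6.91 ± 0.34 (SD, n = 3 each), a difference of 0.48 ± 0.20 (SE; limma, adjusted p = 0.931). It was 0.29 with juice replicate 2 omitted and 0.21 with control replicate 1 omitted too. Cyp9f2 measured 7.38, 8.10 and 7.89 in control and 7.71, 8.47 and 7.87 in juice pools. Cyp9h1, added after its values were seen to complete the family, measured 3.37, 3.90 and 3.87 and then 3.68, 4.52 and 3.57. In both the groups overlapped, with control replicate 1 lowest and juice replicate 2 highest. Their differences, 0.23 and 0.21, came to 0.0016 and -0.089 with juice replicate 2 omitted, and to 0.022 and 0.037 with control replicate 1 omitted. Cyp9b2 measured 7.89 to 8.46 in control and 7.97 to 8.55 in juice pools, a difference of -0.03 with a 95% interval of -0.55 to 0.50. Its neighbour in the gene order, Cyp9b1, measured 2.35 to 2.69 and 2.49 to 2.89, at about the level below which genes were not tested. In 4 of 5 genes juice replicate 2 was highest and control replicate 1 lowest at once, a combination seen in 7 of 50 P450s and in 6.96% of all tested genes. Omitting juice replicate 2 took the family median to 0.0016, omitting control replicate 1 took it to 0.037, and omitting both turned it to -0.20.

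Family 6 holds the P450s most often tied to insecticide resistance in this species. Of 22 genes 18 were tested, 8 higher and 10 lower, with a median difference of -0.02. The resistance gene Cyp6g1, whose overexpression confers resistance to DDT and neonicotinoids, measured 7.90, 8.06 and 8.18 in control and 7.72, 8.41 and 7.82 in juice pools. The juice pools enclosed the control pools, and the difference was -0.06 with a 95% interval of -0.55 to 0.43. Cyp6d5, a gene induced by phenobarbital, measured 8.21, 8.31 and 9.02 in control and 8.03, 8.36 and 8.13 in juice pools. Control replicate 3 alone stood high, the rest overlapped, and the difference was -0.35 ± 0.24 (SE; limma, adjusted p = 0.931), or -0.09 without control replicate 3. Cyp6v1 was likewise highest in control replicate 3, at 5.45, against 4.83 and 4.85 in the other control pools and 4.47 to 5.05 in juice, and its difference of -0.25 became -0.046 when that pool was omitted.

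Cyp6a23 had both the largest difference and the widest spread of the tested P450s. It measured 4.88, 5.40 and 4.27 in control and 6.30, 5.57 and 5.06 in juice pools. Juice replicate 1 was highest and control replicate 3 lowest, and juice replicate 3 fell within the control range. The difference was 0.79 ± 0.38 (SE), 1.73-fold, with a 95% interval of -0.10 to 1.69 (limma, adjusted p = 0.931). Omitting juice replicate 1 gave 0.46 and omitting control replicate 3 gave 0.50. Its near neighbour Cyp6a17, a close paralog, stayed at 2.04 to 2.23 in every pool, below the level at which genes were tested. Where paralogs are this close, probes may bind transcripts of both, and the array design is not given in the sources used here.

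Other family 6 genes with a higher mean in juice were Cyp6a14 and Cyp6d4. Cyp6a14 measured 2.96, 3.22 and 3.18 in control and 3.51, 3.79 and 3.27 in juice pools. The groups did not overlap, though control replicate 2 and juice replicate 3 were almost level. Its difference was 0.40 ± 0.18 (SE; limma, adjusted p = 0.931), and 0.19 with control replicate 1 and juice replicate 2 both omitted. Cyp6d4 measured 3.71 to 3.89 in control and 4.22, 4.23 and 3.86 in juice pools, so that juice replicate 3 again lay among the controls. Cyp6t1 measured 3.48, 4.33 and 3.64 in control and 3.13, 3.79 and 3.45 in juice pools. The difference of -0.36 ± 0.27 (SE) leaned on control replicate 2 and was -0.10 with that pool omitted.

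Of the family 6 genes listed as tied to resistance or induction by foreign compounds, 5 were dim and showed small differences. The others on that list, given above, were brighter. These were Cyp6g1, Cyp6d5, Cyp6d4 and Cyp6a23, with differences from -0.35 to 0.79. Cyp6a2, linked to DDT resistance and induced by barbiturates, measured 2.71 to 2.76 in control and 2.54 to 2.71 in juice pools. Cyp6a8, induced by caffeine and phenobarbital, measured 3.15, 2.72 and 2.86 in control and 3.14, 2.99 and 3.12 in juice pools. Cyp6w1 measured 3.01, 3.24 and 2.58 in control and 3.10 to 3.15 in juice pools. Cyp6g2 measured 2.63 to 3.00 and 2.62 to 2.77, and Cyp6a21 2.80 to 3.31 and 2.75 to 3.25. In each of these 5 genes the groups overlapped, and the differences ran from -0.13 to 0.18. Of the list of 18 P450s tied to resistance or induction by foreign compounds, 17 had a row of their own and 14 were tested: 6 had a higher and 8 a lower mean, 0 passed in either direction, and the median difference was -0.01.

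**Figure D3:**
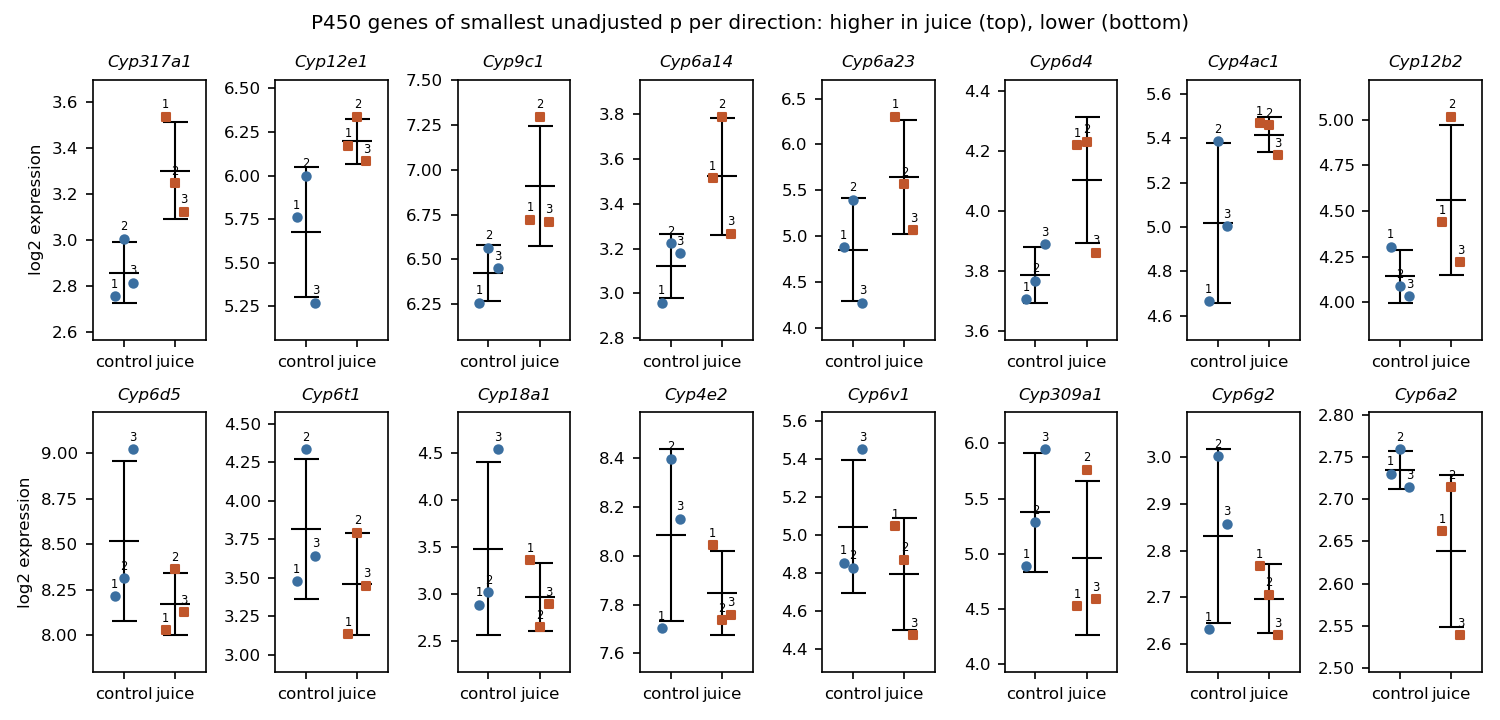
Log2 expression per pool (numbers are replicate numbers) of 16 P450s, the 8 with the smallest unadjusted p among those with a higher mean in juice (top) and the 8 among those with a lower mean (bottom); blue circles are control, orange squares juice, bars are mean ± SD (n = 3), and each panel has its own scale. Single pools stand out, as juice replicate 1 in Cyp6a23 and control replicate 3 in Cyp6d5 and Cyp18a1.

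Family 12 is mitochondrial. Of its 6 genes 4 were tested, 3 of them higher, with a median difference of 0.27. Cyp12e1 measured 5.76, 6.0 and 5.27 in control and 6.17, 6.34 and 6.08 in juice pools. The groups did not overlap, with control replicate 2 just under juice replicate 3. The difference was 0.52 ± 0.21 (SE), with a 95% interval of 0.03 to 1.01 and no call (limma, adjusted p = 0.931), and it was 0.32 without control replicate 3. Cyp12b2 measured 4.31, 4.09 and 4.03 in control and 4.44, 5.02 and 4.22 in juice pools. Juice replicate 2 raised its mean, and the difference of 0.42 was 0.19 without that pool. Cyp12c1 differed by 0.13 ± 0.16 (SE). Cyp12a4, known for resistance to the growth regulator lufenuron, measured 5.06, 5.13 and 5.58 in control and 5.11 to 5.24 in juice pools, a difference of -0.06. The family median was 0.12 without juice replicate 2. Cyp12a5 was too dim to test, at 2.21 to 2.52, as was Cyp49a1, another mitochondrial P450, at 2.29 to 2.86.

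The duplicated resistance gene Cyp12d1 could be read only in part. A row annotated with both copies, Cyp12d1-p and Cyp12d1-d, measured 4.32, 4.93 and 4.42 in control and 4.88, 5.35 and 4.63 in juice pools, 4.56 ± 0.33 against 4.95 ± 0.37 (SD, n = 3 each). The groups overlapped, with control replicate 1 lowest and juice replicate 2 highest, and the row was not tested because it names 2 genes. The row of Cyp12d1-d alone stayed at 1.69 to 2.06.

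Family 28, induced by plant alkaloids in cactus-feeding Drosophila, had 2 of 4 genes tested. Cyp28d1, a gene tied to nicotine resistance in this species, measured 5.25, 5.96 and 5.56 in control and 5.76, 6.03 and 5.10 in juice pools. Cyp28a5 measured 6.54, 7.17 and 6.50 in control and 7.24, 7.01 and 6.38 in juice pools. Both genes were near the top in control replicate 2 and juice replicates 1 and 2 and lowest in juice replicate 3, and the groups overlapped widely. The differences were 0.04 ± 0.28 and 0.14 ± 0.28 (SE). The family median, here the mean of this pair, was 0.35 without juice replicate 3 and turned to between -0.03 and -0.04 without control replicate 1, juice replicate 1 or juice replicate 2. It was -0.15 with array weights and -0.18 with control replicate 1 and juice replicate 2 both omitted. Cyp28d2 was too dim to test, at 2.30 to 2.72.

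In family 4, 13 of 22 genes were tested, 9 higher and 4 lower, with a median difference of 0.08. Leaving out each array in turn, that median ranged from -0.00014 without control replicate 1 to 0.18 without juice replicate 3. It was 0.0047 with array weights and -0.018 with control replicate 1 and juice replicate 2 both omitted. Cyp4g1, the oenocyte enzyme that makes cuticular hydrocarbons from fatty aldehydes, measured 7.88, 7.43 and 7.67 in control and 8.55, 7.96 and 7.21 in juice pools. The highest and the lowest of the 6 values were both in juice pools. The difference was 0.25 ± 0.33 (SE), and it rose to 0.60 when juice replicate 3 was omitted but turned to -0.077 when juice replicate 1 was. The mean of the 4 tested oenocyte markers ran from -0.11 to 0.03 in control and from -0.10 to 0.17 in juice pools. It was highest in juice replicate 1 and lowest in control replicate 2. Of the 4, the dim FASN2 was highest in juice replicate 1, FarO and spidey in juice replicate 2, and FASN3 in control replicate 1. Their part in the level of Cyp4g1 was not tested. Its relative Cyp4g15 stayed within 3.14 to 3.46 in every pool. Both tested genes of the cuticle and hydrocarbon list, of 4 listed, thus had a higher mean, and 0 passed.

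Among the other family 4 genes, Cyp4ac1 measured 4.67, 5.39 and 5.01 in control and 5.47, 5.46 and 5.32 in juice pools. The juice pools were close together and only control replicate 2 reached them, for a difference of 0.40 ± 0.20 (SE; limma, adjusted p = 0.931) that fell to 0.22 with control replicate 1 omitted. Cyp4ac3, from the same run of neighbouring genes, measured 4.06, 4.30 and 3.99 in control and 4.36, 4.24 and 4.37 in juice pools. Cyp4s3 measured 5.16, 5.82 and 5.38 in control and 5.66, 6.51 and 5.35 in juice pools, and Cyp4d1 6.26, 6.58 and 6.54 and then 6.51, 7.16 and 5.95. In both juice replicate 2 was well above the others, and the differences, 0.39 and 0.08, became 0.054 and -0.23 without it, while omitting control replicate 1 gave 0.24 and -0.017. Cyp4e2 measured 7.70, 8.40 and 8.15 in control and 8.04, 7.73 and 7.76 in juice pools, a difference of -0.24 ± 0.21 (SE) that was -0.081 with control replicate 2 omitted and -0.43 with control replicate 1 omitted. Cyp4p1 differed by -0.01, with a 95% interval of -0.42 to 0.41. Cyp4e3, a Malpighian tubule gene linked to permethrin tolerance, was too dim to test, at 2.22 to 2.62.

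Of the hormone-related members, Cyp18a1 encodes the hydroxylase that inactivates ecdysone and is itself induced by the hormone. It measured 2.89, 3.01 and 4.54 in control and 3.36, 2.65 and 2.89 in juice pools. Control replicate 3 stood more than 2-fold above every other pool, and the other control pools lay within the juice range. The difference of -0.51 ± 0.44 (SE) became 0.016 without control replicate 3 and -0.81 without control replicate 1. The ecdysone response list, 8 of 10 genes with a value, was also highest in control replicate 3, at a mean deviation of 0.67. It was lowest in juice replicate 2, at -1.05. These were the pools in which Cyp18a1 was highest and lowest. The list stood at 0.39 in control replicate 1 and at -0.33 in juice replicate 3, while Cyp18a1 was at 2.89 in both. The list ranged from 0.15 to 0.67 in control and from -1.05 to 0.16 in juice pools, and 7 of 8 genes had a lower mean in juice. The nuclear receptor gene Hr4, with the largest difference of the list, measured 6.44, 6.18 and 7.83 in control and 6.46, 4.02 and 4.72 in juice pools. Eip78C, Hr3 and ImpE2 were also highest in control replicate 3, while br, Blimp-1 and ImpE1 were highest in control replicate 1. The gene ftz-f1 went the other way, at 4.17, 3.99 and 3.65 in control and 4.85, 4.28 and 4.21 in juice pools. The part of this list in the level of Cyp18a1 was not tested. Cyp6t3, which is needed for ecdysone synthesis in the prothoracic gland, stayed at 2.10 to 2.38 in every pool and was not tested. Of the 4 members listed for hormone metabolism 3 were tested, 0 higher and 3 lower, with a median difference of -0.13 and 0 passing; beside Cyp18a1 these were Cyp6g2 and Cyp6a13.

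The remaining ecdysteroid P450s carry names of their own and are not members. Of 6, 4 were tested, 3 with a higher and 1 with a lower mean, and 0 passed in either direction. The terminal hydroxylase gene shd measured 6.58 to 6.85 in control and 6.80 to 7.20 in juice pools, a difference of 0.23 that came to 0.11 with juice replicate 2 omitted, and sad 3.65 to 3.90 and 3.74 to 4.21. The prothoracic gland genes spok and phtm differed by 0.08 ± 0.17 and -0.02 ± 0.24 (SE).

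Of the 21 P450s of other families 8 were tested, 4 higher and 4 lower. Cyp317a1 had the smallest unadjusted p of all members. It measured 2.75, 3.00 and 2.81 in control and 3.54, 3.25 and 3.12 in juice pools, a dim signal. The groups did not overlap, with juice replicate 1 highest, and the difference was 0.44 ± 0.16 (SE), 1.36-fold, with a 95% interval of 0.06 to 0.82 (limma, adjusted p = 0.931). Cyp313b1 also showed no overlap, at 3.65 to 3.73 in control and 3.75 to 3.98 in juice pools, for a difference of 0.20 ± 0.13 (SE). Cyp309a1 measured 4.89, 5.29 and 5.95 in control and 4.53, 5.76 and 4.58 in juice pools, a difference of -0.42 ± 0.40 (SE) that came to -0.13 with control replicate 3 omitted, to -0.66 with control replicate 1 omitted and to -0.82 with juice replicate 2 omitted. Cyp312a1 measured 4.51, 3.29 and 4.19 in control and 3.69 to 4.02 in juice pools, with the highest and the lowest value both in control. Cyp304a1, added after its values were seen for its wide spread, measured 5.04, 5.67 and 5.70 in control and 5.02, 6.10 and 5.37 in juice pools.

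Members with roles in patterning, gut and behaviour showed small differences, and of 3 tested 2 had a higher and 1 a lower mean. Cyp310a1, a modulator of Wingless signalling, measured 4.13 to 4.31 in control and 4.07 to 4.33 in juice pools. Cyp311a1, which acts in the midgut epithelium, differed by 0.13 ± 0.17 (SE), and Cyp6a20, known from male aggression, by 0.05 ± 0.17 (SE). The courtship gene Cyp4d21 stayed at 1.84 to 2.18. The cuticle gene Cyp301a1 and the bristle gene Cyp303a1 stayed at 2.34 to 2.73 and 2.07 to 2.37. The 9 tested members not yet given, 5 of family 4 and 4 of family 6, all overlapped between groups, with differences from -0.16 to 0.17. In all, 30 P450s were too dim to test, 13 of them from the other families, 9 from family 4, 4 from family 6 and 2 each from families 12 and 28. Their values lay between 1.69 and 2.86 in every array, their differences ran from -0.15 to 0.20, and the widest spread of any of them was 0.61.

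**Figure D4:**
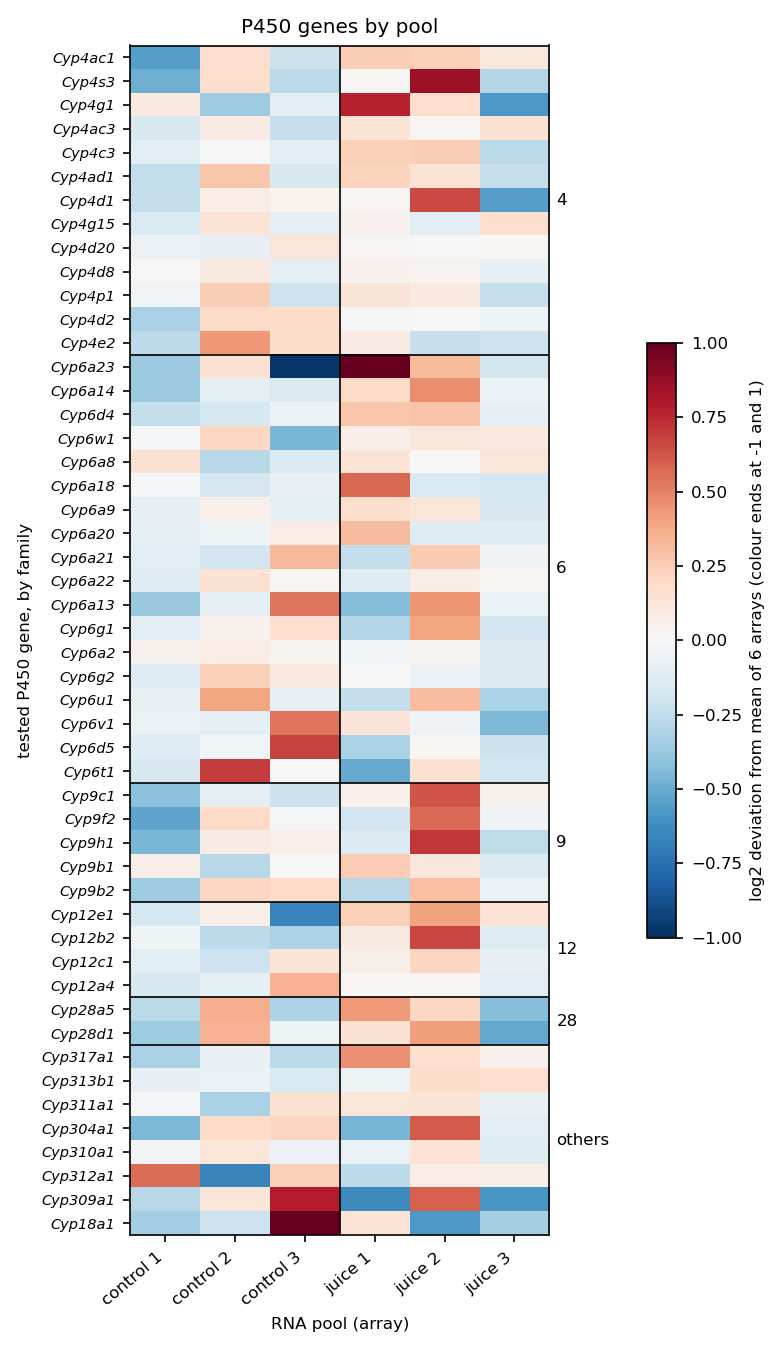
Log2 deviation of each tested P450 (rows, by family and then by difference) from its own mean over 6 arrays, per RNA pool; red is above and blue below, with colours ending at -1 and 1. Single squares rather than whole columns carry the strong colours, as in Cyp6a23 in juice replicate 1 and Cyp18a1 in control replicate 3, and family 9 is red throughout in juice replicate 2.

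Many of these genes lie side by side. In the RefSeq gene table of assembly Release 6 plus ISO1 MT all 80 P450s were found, and 41 of them fell into 14 runs of P450 genes with no other coding gene between. The longest run held 9 members, Cyp6a22, Cyp6a17, Cyp6a23, Cyp6a19, Cyp6a9, Cyp6a20, Cyp6a21, Cyp6a8 and Cyp317a1, of which 7 were tested. Of these 7, 5 had a higher mean in juice, with differences from -0.03 to 0.79. Juice replicate 1 was the highest array for 4 of the 7, for 9 of all 50 tested P450s and for 9.81% of all tested genes. The run of Cyp6g1, Cyp6g2 and Cyp6t3 had 2 tested genes, both with a lower mean, at -0.06 and -0.13. The run of Cyp4ac1, Cyp4ac2 and Cyp4ac3 had 2 tested genes, both higher, at 0.40 and 0.21. In the run of Cyp6a14 and Cyp6a13, parted only by a P450 pseudogene, the former differed by 0.40 and the latter by -0.05, and Cyp6a13 was highest in control replicate 3 at 7.28 while Cyp6a14 was highest in juice replicate 2.

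The partner genes of P450s were read beside them; P450 reductase and ferredoxin reductase were not analysed here. Cyt-b5, the cytochrome that passes an electron to microsomal P450s, measured 7.23, 7.12 and 7.22 in control and 7.55, 7.75 and 7.39 in juice pools. Every juice pool lay above every control pool, and the difference was 0.37 ± 0.15 (SE; limma, adjusted p = 0.931). Of 5 electron donors listed 3 were tested, 2 higher and 1 lower, and 0 passed. The ferredoxins Fdx1 and Fdx2 differed by 0.12 ± 0.17 and -0.17 ± 0.14 (SE). Of the 7 measured genes of haem synthesis, all tested, 4 had a higher and 3 a lower mean, and 0 passed. Pbgs, the porphobilinogen synthase, measured 6.76, 6.92 and 6.81 in control and 6.94, 7.94 and 7.36 in juice pools. The groups did not overlap, although control replicate 2 and juice replicate 1 were nearly equal, and the difference was 0.59 ± 0.25 (SE; limma, adjusted p = 0.931), or 0.32 without juice replicate 2. Alas, which catalyses the first step of the pathway, differed by 0.14 ± 0.20 (SE).

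Of 9 regulators that are known to act on P450 genes or on responses to foreign compounds, 4 had a higher and 5 a lower mean and 0 passed in either direction. The bHLH-PAS partner gene tgo measured 6.69, 6.87 and 6.95 in control and 6.58, 6.04 and 6.56 in juice pools. All juice pools lay below all control pools, and the difference was -0.44 ± 0.19 (SE; limma, adjusted p = 0.931), or -0.27 with juice replicate 2 omitted. The xenobiotic receptor gene Hr96 measured 4.62 to 4.93 in control and 4.78 to 5.26 in juice pools, a difference of 0.21 that came to 0.067 with juice replicate 2 omitted. Keap1 and maf-S, the inhibitor and the partner of the Nrf2 homologue cnc, differed by -0.13 ± 0.14 and -0.20 ± 0.20 (SE).

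Of the cyclophilin genes, Cyp1 measured 10.65 to 10.73 in control and 10.56 to 10.87 in juice pools, a difference of 0.03 with a 95% interval of -0.29 to 0.36. Cyp40 measured 3.39 to 3.67 in control and 3.13 to 3.38 in juice pools, without overlap, a difference of -0.20 ± 0.15 (SE; limma, adjusted p = 0.931). With both counted as members 31 of 52 genes had a higher mean.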

How the data were processed

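Larval RNA was hybridised to 6 single-channel Affymetrix arrays, 3 per group. The authors deposited 1 log2 expression value per array row; they used RMA in Affymetrix Expression Console 1.4.0.38, per the submitters' processing notes, which give no filter or annotation version. RMA as generally defined equalises probe distributions, so a change shared by most transcripts is largely removed. Of 16322 rows, 13441 name 1 gene, 555 several and 2326 none; the brightest row per gene was kept (13402 genes). Genes below the 25th percentile of mean value (2.63) were left out, and 10051 were tested two-sided in limma 3.58.1 (lmFit, then eBayes; R 4.3.3) with Benjamini-Hochberg adjustment over all of them. Differences are juice minus control; intervals are 95% moderated intervals. The labels do not say whether pools came from separate cultures, so each p-value reflects the spread among these pools alone; 3 arrays per group limit the precision. The fit was checked on simulated data.

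The members, lists and alternatives, which include other filters, normalizations, variance models, array weights, a replicate block and each array left out, were chosen with earlier results of these data known. Named were the 8 tested P450s of smallest unadjusted p per direction, the 8 with the largest range, up to 3 per family, members of the role lists, and up to 4 genes of each partner list. Deviations are from a gene's mean over 6 arrays.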

Additional observations from a re-analysis of the deposited data

How the results depend on the processing

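The count of called P450s was 0 in every alternative run. Over all tested genes it was 0 as well, except without juice replicate 3. There 4 genes were called, none of them a P450. The other results rest on few pools. At unadjusted p under 0.05, 1 member was higher with array weights, with the dimmer 50% of genes removed or with the ordinary test without moderation. For all tested genes, both directions together, these settings gave 571 of 10051, 340 of 6701 and 399 of 10051. Leaving out each array in turn gave 0 to 6 members higher and 0 to 1 lower. Over all 10051 tested genes and both directions it gave 181 to 750, and leaving out control replicate 1 and juice replicate 2 gave 454. Without both control replicate 1 and juice replicate 2, a setting chosen after seeing the data, 0 were higher and 3 lower, and the medians of families 6 and 9 were -0.14 and -0.20. Members with a higher mean numbered 18 of 32 after the dimmer 50% were removed and 50 of 80 with no filter, where the number tested shows the cause, and 26 to 37 leaving out each array in turn. The shares of all tested genes with a higher mean were, in the same order, 46.1%, 45.1% and 41.92% to 53.25%. Higher members numbered 25 of 50 with array weights and 22 of 50 without both pools, where the median over members was -0.013 and -0.043. Of all tested genes 46.9% and 45.9% were higher there. The family 12 median ranged from 0.12 to 0.39 over the arrays left out.

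The replicate block left the count of called members at 0, of higher members at 30 and of members at unadjusted p under 0.05 at 3. Over all 10051 tested genes in that setting, 44.9% had a higher mean and 484 were at that p, both directions together. Deviations of same-numbered pools correlated at -0.11, -0.07 and -0.08, and those of differently numbered pools at -0.11 to 0.175. These values show no pairing by number. They cannot show whether same-numbered pools were handled together.

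Of 41 named tested P450s, 20 kept their direction in every alternative in which they were tested, 13 higher and 7 lower. Of these, 14 were tested in all 16 alternatives and 6 in 15, being absent once the dimmer 50% were removed. Of 15 partner genes, 8 kept it in all 16. Array weights turned Cyp28a5 (-0.061), Cyp28d1 (-0.23), Cyp312a1 (0.015), Cyp4d1 (-0.21), Cyp9h1 (-0.029), Cyp304a1 (-0.15) and Alas (-0.037). Leaving out both pools turned Cyp28a5 (-0.026), Cyp28d1 (-0.33), Cyp312a1 (0.12), Cyp4d1 (-0.33), Cyp4s3 (-0.093), Cyp9f2 (-0.20), Cyp9h1 (-0.26), Cyp304a1 (-0.49), Alas (-0.071), Uros1 (-0.071) and Hr96 (-0.0068). Equal array medians turned Cyp310a1 (0.011), Cyp4p1 (0.034), Cyp6a21 (0.024), Cyp9b2 (0.012) and phtm (0.018). Quantile normalization turned Cyp310a1 (0.022) and Cyp4p1 (0.013). The cause was not tested. Leaving out each array in turn, the difference ranged across 0 in Cyp12a4 (-0.15 to 0.10), Cyp18a1 (-0.81 to 0.016), Cyp28a5 (-0.039 to 0.39), Cyp28d1 (-0.16 to 0.31), Cyp304a1 (-0.28 to 0.27), Cyp310a1 (-0.11 to 0.026), Cyp311a1 (-0.0031 to 0.24), Cyp312a1 (-0.44 to 0.17), Cyp4d1 (-0.23 to 0.38), Cyp4g1 (-0.077 to 0.60), Cyp4g15 (-0.0038 to 0.15), Cyp4p1 (-0.11 to 0.11), Cyp6a13 (-0.28 to 0.21), Cyp6a20 (-0.10 to 0.12), Cyp6a21 (-0.15 to 0.14), Cyp6g1 (-0.27 to 0.069), Cyp6w1 (-0.00056 to 0.33), Cyp9b2 (-0.21 to 0.10), Cyp9h1 (-0.089 to 0.39), Coprox (-0.20 to 0.076), Fdx1 (-0.019 to 0.21), Uros1 (-0.070 to 0.24), phtm (-0.21 to 0.16) and spok (-0.045 to 0.20).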
